A study of Mus musculus with 7 samples.

Results

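A set of 10 genes that bring fatty acids into the cell, carry them inside it and activate them were followed in mouse liver: the uptake genes Cd36, Slc27a1, Slc27a2 and Slc27a4, the binding protein genes Fabp1, Fabp2 and Fabp4, and the acyl-CoA synthetase genes Acsl1, Acsl3 and Acsl5. They were chosen by gene symbol, and each had 1 entry among the 27810 genes of the deposited table, so all 10 of 10 were found. The 7 liver samples, called livers here, came from male wild-type C57BL/6j mice, all fed from 5 weeks of age on a Western-type diet (WD in the labels) with 40% fat, 20% fructose and 2% cholesterol, a model the labels call NASH, a fatty liver disease with inflammation. After 32 weeks on the diet each mouse had 1 tail-vein injection, and liver was taken after 40 weeks. In the MSC group (replicates 0, 1 and 2; 3 libraries) the injection held human umbilical cord mesenchymal stromal cells. In the vehicle group (replicates 1, 3 and 4; 3 libraries) it held phosphate-buffered saline. Vehicle replicate 6 carries the word Cancer in its label, which does not say what the word refers to, and it was kept as a group of 1 library. All groups shared the diet, and the samples analysed here hold no other diet. Since nothing in the labels ties each library to its own mouse, the p-values rest on library-to-library spread, which may be technical.

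Long-chain fatty acids cross the plasma membrane of hepatocytes with the help of CD36, a scavenger receptor and fatty acid translocase, and of the fatty acid transport proteins encoded by the Slc27 family, some of which also activate very long chains. Inside the cell they are held in solution by fatty acid binding proteins, of which FABP1 is the main form in liver. Long-chain acyl-CoA synthetases (ACSL) couple them to coenzyme A, after which they can be oxidised or built into triglyceride. Several of these genes are classical targets of PPARα, the nuclear receptor that senses fatty acids in hepatocytes.

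Expression is given in FPKM, a value scaled by transcript length and by the mapped fragments of a library, so levels can be compared between genes. Counts were not analysed here, so sequencing depth is unknown. A level of 1 FPKM was reached by 9655 to 12041 genes in a library. Transcripts of the mitochondrial genome made up 36.4% of all FPKM in MSC replicate 1, compared with 16.5% to 23.3% in the rest. All 7 hepatocyte markers were present, from Alb to Hnf4a. Their summed level was 25083 to 37511 FPKM in MSC libraries, 20220 to 28435 in vehicle libraries and 30368 in the Cancer-labelled library. Alb made up most of each sum. In MSC against vehicle libraries 5 of the 7 were higher and 2, Hnf4a and Cps1, were lower. Of all genes tested, 60.1% were lower. Bile duct markers (Krt19, Krt7, Epcam, Sox9 and Spp1, all 5 present) summed to 31.2 to 144 FPKM in MSC libraries, 47.8 to 165 in vehicle libraries and 511 in the Cancer-labelled library. Most of each sum came from Spp1, which was at 453 FPKM in the Cancer-labelled library.

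The sequences around the start sites of 3 members are shown because they differ in kind: Fabp1 was the member with the highest level, and Acsl1 and Slc27a1 were the 2 members with the lowest p-values between MSC and vehicle livers. RefSeq windows (GRCm38.p6) of 300 bases, 250 before and 50 after an annotated start, were available for 9 of the 10 members in 12 windows, more than 1 for Acsl1 (2 windows) and Slc27a1 (3 windows). Each window was searched on both strands for a direct repeat of AGGNCA with 1 base of any kind between the copies, the form of element to which PPARα binds with its partner RXR, for TATAAA and for the GC box GGGCGG. Capitals mark the matches below, which run 5′ to 3′ on the gene's strand. The Fabp1 window lies at chr6:71199629-71199928 on the plus strand. The upstream Acsl1 window lies at chr8:46470787-46471086 and the downstream one at chr8:46490716-46491015, both on the plus strand. The first Slc27a1 window lies at chr8:71568621-71568920 on the plus strand.
Fabp1: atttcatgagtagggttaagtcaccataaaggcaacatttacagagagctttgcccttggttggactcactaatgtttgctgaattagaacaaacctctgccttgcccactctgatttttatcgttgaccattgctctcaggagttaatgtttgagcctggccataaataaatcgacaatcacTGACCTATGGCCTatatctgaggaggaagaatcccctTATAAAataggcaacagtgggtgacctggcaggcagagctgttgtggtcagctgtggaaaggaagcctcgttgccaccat
Acsl1 upstream: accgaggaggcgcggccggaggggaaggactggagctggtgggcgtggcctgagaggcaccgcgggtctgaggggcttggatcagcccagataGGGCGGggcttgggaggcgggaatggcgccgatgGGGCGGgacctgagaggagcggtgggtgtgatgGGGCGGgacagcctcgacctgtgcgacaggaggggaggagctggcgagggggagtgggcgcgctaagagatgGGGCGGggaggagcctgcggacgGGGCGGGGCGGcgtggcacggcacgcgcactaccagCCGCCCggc
Acsl1 downstream: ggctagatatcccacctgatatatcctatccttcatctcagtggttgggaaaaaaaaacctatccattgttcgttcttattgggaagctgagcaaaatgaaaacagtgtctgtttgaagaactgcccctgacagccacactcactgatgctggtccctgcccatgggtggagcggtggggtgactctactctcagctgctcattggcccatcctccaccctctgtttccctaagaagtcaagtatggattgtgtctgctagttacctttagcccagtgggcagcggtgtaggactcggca
Slc27a1 first window: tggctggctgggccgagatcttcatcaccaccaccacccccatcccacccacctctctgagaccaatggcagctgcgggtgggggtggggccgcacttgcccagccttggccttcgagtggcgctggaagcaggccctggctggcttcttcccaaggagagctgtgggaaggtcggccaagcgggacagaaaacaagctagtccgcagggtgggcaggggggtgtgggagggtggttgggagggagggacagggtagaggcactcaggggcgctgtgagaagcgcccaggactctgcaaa

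In the Fabp1 window the direct repeat was found on the minus strand at positions -67 to -55 from the start site, and TATAAA stood at -30 to -25. No other member window held either motif, while 0.381% of all 32851 windows in the table held the direct repeat and 13.6% held TATAAA. The GC box occurred in 7 of the 12 member windows, from 6 genes, against 35.7% of all windows. The upstream Acsl1 window held 7 copies, 2 of which share a base, and the downstream one held none. In the first Slc27a1 window none of the 3 motifs was found, and the other Slc27a1 windows held 1 and 3 GC boxes. A match describes the letters only and does not show binding.

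**Figure D1:**
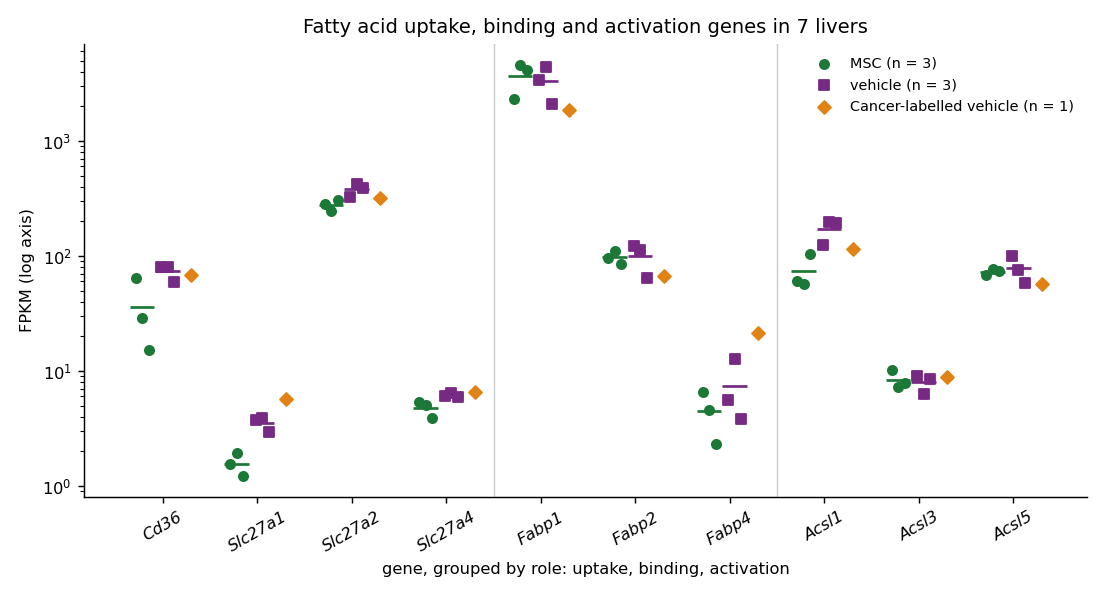
FPKM on a log axis for each of the 10 genes (horizontal axis, by role), with a point per library and a bar at the mean of the 3 MSC and the 3 vehicle libraries. Fabp1 lies above all other genes in each library, and the MSC points of Slc27a1, Slc27a2, Slc27a4 and Acsl1 lie below all of their vehicle points.

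The 10 levels spanned more than 3 orders of magnitude, and the top and the bottom of their order held in every library. Fabp1 ranked 1st and Slc27a2 2nd in all 7 libraries, and Slc27a1 ranked 10th in all 7. The ranges of Fabp1 (1843 to 4614 FPKM), of Slc27a2 (245 to 419 FPKM) and of Acsl1, the next by mean, did not overlap, nor did those of Cd36 and Acsl3. Acsl1, Fabp2, Acsl5 and Cd36 formed the middle, at means over 7 libraries of 122, 94.0, 72.6 and 56.7 FPKM, and the range of each overlapped that of the next. Acsl3, Fabp4, Slc27a4 and Slc27a1 were low, at means of 8.28, 8.13, 5.60 and 2.99 FPKM, and again the range of each overlapped that of the next. The highest and lowest library differed least for Acsl3 (1.60-fold) and most for Fabp4 (9.25-fold).

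The first comparison, MSC against vehicle, asked which steps of fatty acid handling differed after stromal cell injection. Slc27a1, Slc27a2, Slc27a4 and Acsl1 were lower in each of the 3 MSC livers than in each of the 3 vehicle livers, by factors of the group means from 1.28 for Slc27a4 to 2.33 for Acsl1. Mean Cd36 was 2.04 times higher in vehicle livers, with overlapping groups. The binding protein genes and Acsl3 and Acsl5 overlapped between the groups. None of the 10 passed limma over all 10534 genes tested at an adjusted p of 0.05, a threshold that 0.019% of those genes passed. At an unadjusted p under 0.05, 3 members (Cd36, Slc27a1 and Acsl1) stood below the threshold, against 5.59% of all genes in both directions. All 3 were lower in MSC livers, against 4.14% of all genes. Without overlap, 4 of the 10 members were lower, against 7.84% of all genes, and none was higher, against 2.17%. A negative difference was seen in 7 of 10 members and in 60.1% of all genes, and the median log2 difference was -0.38 for the members and -0.05 for all genes. All 10 members passed the filter on low values.

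Slc27a1 encodes FATP1, a fatty acid transport protein best known from muscle and fat, and was the least abundant member. It lies on chromosome 8 of GRCm38 at 71568882-71587301 (plus strand; ENSMUSG00000031808). It measured 1.55, 1.92 and 1.22 FPKM in MSC replicates 0, 1 and 2 and 3.75, 3.93 and 2.91 FPKM in vehicle replicates 1, 3 and 4. The highest MSC library thus lay below the lowest vehicle library. The group levels were 1.56 ± 0.353 and 3.53 ± 0.543 FPKM (SD, n = 3 each). On the scale of log2(FPKM + 1) the difference, MSC minus vehicle, was -0.82 ± 0.18 (SE; 95% interval -1.23 to -0.42), with an adjusted p of 0.450 in limma. The exact two-sided permutation test of 3 against 3 libraries gave p = 0.1, the smallest value this design allows. Slc27a1 stayed without overlap as TPM, without mitochondrially encoded genes and with libraries centred on their medians. The other alternatives could not bring overlap about. Leaving a library out cannot create it, and the Cancer-labelled library, counted as vehicle, was the highest of all. The 5 skeletal muscle markers, among them Acta1 and Ckm, all stayed under 1 FPKM in every library. The summed adipocyte markers were 4.31 to 4.97 FPKM in MSC and 6.80 to 14.0 FPKM in vehicle livers. Single adipocyte markers differed: Adipoq was at 0 to 0.07 FPKM, and mean Adrb3 was higher in MSC livers. The part of muscle or fat cells in the Slc27a1 values was not tested.

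Slc27a2 encodes FATP2, the main hepatic member with Slc27a5, which transports long chains and activates very long ones. It measured 283, 245 and 308 FPKM in MSC livers and 326, 419 and 393 FPKM in vehicle livers. The groups did not overlap, but MSC replicate 2 and vehicle replicate 1 were close. The means were 278 ± 31.6 and 379 ± 47.8 FPKM (SD, n = 3 each), a log2 difference of -0.44 ± 0.24 (SE; 95% interval -0.98 to 0.09; adjusted p = 0.995 in limma). Slc27a4 encodes FATP4, found in membranes of the endoplasmic reticulum in many tissues. It measured 5.34, 5.06 and 3.91 FPKM in MSC livers and 5.99, 6.47 and 5.89 FPKM in vehicle livers. These groups also stood apart, with the vehicle livers close together and MSC replicate 2 lowest. The log2 difference was -0.31 ± 0.16 (SE; 95% interval -0.68 to 0.06; adjusted p = 0.995 in limma). The exact permutation p was 0.1 for both genes. With values rescaled to TPM the Slc27a4 groups overlapped, and with libraries centred on their medians those of Slc27a2 did.

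The ratio of 2 genes within a library does not depend on how libraries are scaled. The ratio of Slc27a1 to Slc27a4, chosen after the values were seen, was 0.289, 0.380 and 0.311 in MSC livers and 0.626, 0.608 and 0.495 in vehicle livers. It was lower in every MSC liver. The ratio of Slc27a1 to Slc27a2 overlapped between the groups, at 0.00547, 0.00785 and 0.00396 in MSC and 0.0115, 0.00938 and 0.00742 in vehicle livers. The ratio of Slc27a2 to Slc27a4 was 52.9, 48.4 and 78.6 in MSC and 54.4, 64.8 and 66.7 in vehicle livers, with overlap.

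Cd36 lies on chromosome 5 at 17781690-17888801 (minus strand; ENSMUSG00000002944). It measured 64.4, 28.7 and 15.1 FPKM in MSC replicates 0, 1 and 2 and 80.5, 80.5 and 59.8 FPKM in vehicle replicates 1, 3 and 4. MSC replicate 0 lay above vehicle replicate 4, and the other MSC libraries lay below all vehicle libraries. The means were 36.1 ± 25.5 and 73.6 ± 11.9 FPKM (SD, n = 3 each). The log2 difference was -1.23 ± 0.44 (SE; 95% interval -2.24 to -0.22; adjusted p = 0.749 in limma), and the exact permutation p was 0.2. Without MSC replicate 0 it was -1.76, and without MSC replicate 2 it was -0.75. CD36 is also made by macrophages and capillary endothelium, so in whole liver fewer cells of a type and less RNA per cell cannot be told apart. The 8 macrophage markers, all present, summed to 120, 30.02 and 95.3 FPKM in MSC replicates 0, 1 and 2 and to 113, 54.4 and 151 FPKM in vehicle replicates 1, 3 and 4. The 7 endothelial markers, all present, summed to 43.2, 6.88 and 29.2 FPKM in MSC and 30.4, 11.0 and 28.3 FPKM in vehicle livers. MSC replicate 1 was the lowest for both sums. In MSC replicate 2, where Cd36 was lowest, single macrophage markers went both ways. Gpnmb and Trem2 were lowest of all 7 libraries there, at 3.43 and 0.122 FPKM, and Timd4 was highest, at 2.59 FPKM. The rest of the macrophage list was neither lowest nor highest there. The part of these cells in the Cd36 values was not tested.

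Fabp1 encodes liver fatty acid binding protein, one of the most abundant cytosolic proteins of hepatocytes (chromosome 6, 71199827-71205023; ENSMUSG00000054422). It measured 2322, 4614 and 4134 FPKM in MSC livers and 3383, 4396 and 2107 FPKM in vehicle livers. The groups covered nearly the same range, and the order of libraries did not follow the injection. The means were 3690 ± 1209 and 3296 ± 1147 FPKM (SD, n = 3 each), a log2 difference of 0.17 ± 0.45 (SE; 95% interval -0.86 to 1.20; adjusted p = 0.995 in limma). Fabp1 alone held 0.605% to 0.908% of the summed FPKM in MSC livers and 0.490% to 1.01% in vehicle livers. Its window was the only member window with the direct repeat shown above.

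Fabp2 encodes the intestinal form, which mouse liver also makes. It measured 95.8, 110 and 85.8 FPKM in MSC livers and 123, 114 and 64.1 FPKM in vehicle livers. The vehicle libraries lay on both sides of the MSC libraries, and the log2 difference was 0.00 ± 0.28 (SE; 95% interval -0.63 to 0.63; adjusted p = 0.999 in limma). Of the intestinal epithelium markers, Sis was listed at 0 in 6 libraries and at 0.0034 FPKM in vehicle replicate 4, and the sum of the list, 12.5 to 23.8 FPKM over the 7 libraries, came mostly from Lgals4. Fabp4 encodes the binding protein of fat cells, which capillary endothelium and macrophages make too. It measured 6.49, 4.59 and 2.31 FPKM in MSC livers and 5.53, 12.8 and 3.81 FPKM in vehicle livers. Vehicle replicate 3 was high and the other 5 libraries overlapped. The log2 difference was -0.55 ± 0.41 (SE; 95% interval -1.49 to 0.40; adjusted p = 0.995 in limma), and it was -0.12 without vehicle replicate 3. Of 7 adipocyte markers 5 had values; Adipoq, the defining one, was at 0 to 0.07 FPKM and Plin1 at 0 to 0.04 FPKM in the 7 libraries. Cfd and Lipe, the 2 adipocyte markers tested, were lower without overlap in MSC livers, as 7.84% of all genes tested were. Mean Adrb3, not tested, was higher in MSC than in vehicle livers, at 0.876 against 0.760 FPKM, with overlap. Among these 6 libraries Cfd, the complement factor secreted by fat cells, was highest in vehicle replicate 3, at 9.91 FPKM against 1.15 to 3.13 FPKM in the other 5. Fabp4 was also highest there, and so was Lipe, at 3.46 FPKM, while Adrb3 was lowest there, at 0.638 FPKM. The summed adipocyte markers were 4.31 to 4.97 FPKM in MSC and 6.80 to 14.0 FPKM in vehicle livers, and their part in the Fabp4 values was not tested.

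Acsl1 encodes the main long-chain acyl-CoA synthetase of liver, heart and fat (chromosome 8, 46471037-46536051, plus strand; ENSMUSG00000018796). It measured 61.0, 56.9 and 103 FPKM in MSC replicates 0, 1 and 2 and 125, 198 and 192 FPKM in vehicle replicates 1, 3 and 4. All MSC livers lay below all vehicle livers, with MSC replicate 2 and vehicle replicate 1 nearest to each other. The means were 73.6 ± 25.5 and 172 ± 40.3 FPKM (SD, n = 3 each). The log2 difference was -1.23 ± 0.30 (SE; 95% interval -1.91 to -0.56), with an adjusted p of 0.552 in limma and an exact permutation p of 0.1. With libraries centred on their medians the groups overlapped. The log2 difference ran from -1.50 to -1.08 when single libraries were left out.

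Acsl3, a synthetase of the endoplasmic reticulum and lipid droplet surface, measured 10.1, 7.31 and 7.79 FPKM in MSC livers and 9.10, 6.31 and 8.42 FPKM in vehicle livers. Its log2 difference was 0.07 ± 0.19 (SE; 95% interval -0.36 to 0.51; adjusted p = 0.995 in limma). The libraries of both groups were intermixed, as they were for Acsl5. Acsl5, a synthetase of mitochondria and endoplasmic reticulum, measured 67.9, 76.5 and 73.4 FPKM in MSC livers and 100, 75.3 and 57.9 FPKM in vehicle livers. Its log2 difference was -0.07 ± 0.23 (SE; 95% interval -0.60 to 0.47; adjusted p = 0.998 in limma). Utp14b overlaps Acsl3 on the same strand at 0.494 to 1.88 FPKM, and Zdhhc6 overlaps Acsl5 on the opposite strand at 5.97 to 7.71 FPKM. The labels do not say how strand was treated in counting, so reads of such pairs could be shared.

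**Figure D2:**
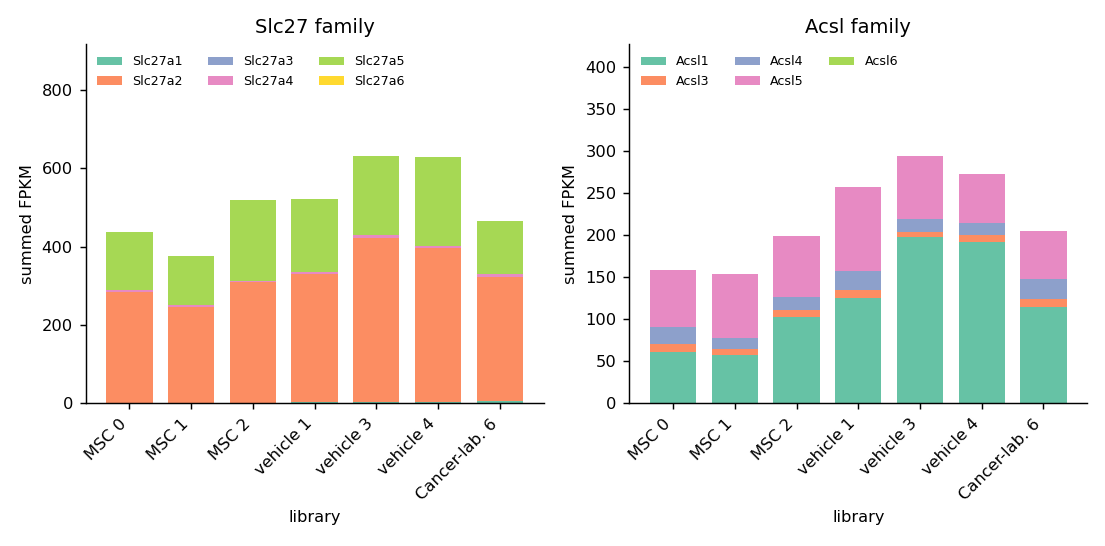
Summed FPKM of the 6 Slc27 genes and of the 5 Acsl genes in each library (bars from 0, 1 bar per library, divided by gene). The vehicle bars for Acsl stand at 258 to 295 and the MSC bars at 154 to 200, and the Acsl1 segment is the part that differs most in height.

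Summed over the 5 Acsl genes with values (Acsl1, Acsl3, Acsl4, Acsl5 and Acsl6), the family stood at 158, 154 and 200 FPKM in MSC livers and at 258, 295 and 273 FPKM in vehicle livers. The sums did not overlap. Acsl1 made up 38.5%, 36.9% and 51.6% of the sum in MSC livers and 48.6%, 67.1% and 70.4% in vehicle livers. Acsl5 made up 42.9%, 49.6% and 36.8% in MSC livers and 38.9%, 25.5% and 21.2% in vehicle livers. Acsl5 was thus the largest Acsl transcript in MSC replicates 0 and 1 and Acsl1 in the other 5 libraries. For the Slc27 family (6 genes) the sum was 438, 377 and 520 FPKM in MSC livers and 522, 633 and 628 FPKM in vehicle livers. Slc27a2 gave 59.1% to 66.2% and Slc27a5 32.1% to 39.9% of it in these 6 livers. Slc27a5 encodes FATP5, the liver-specific member, which also activates bile acids. The Fabp sum (7 genes) was 2432 to 4733 FPKM in MSC and 2186 to 4530 FPKM in vehicle livers, and Fabp1 held 95.5% to 97.6% of it.

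**Figure D3:**
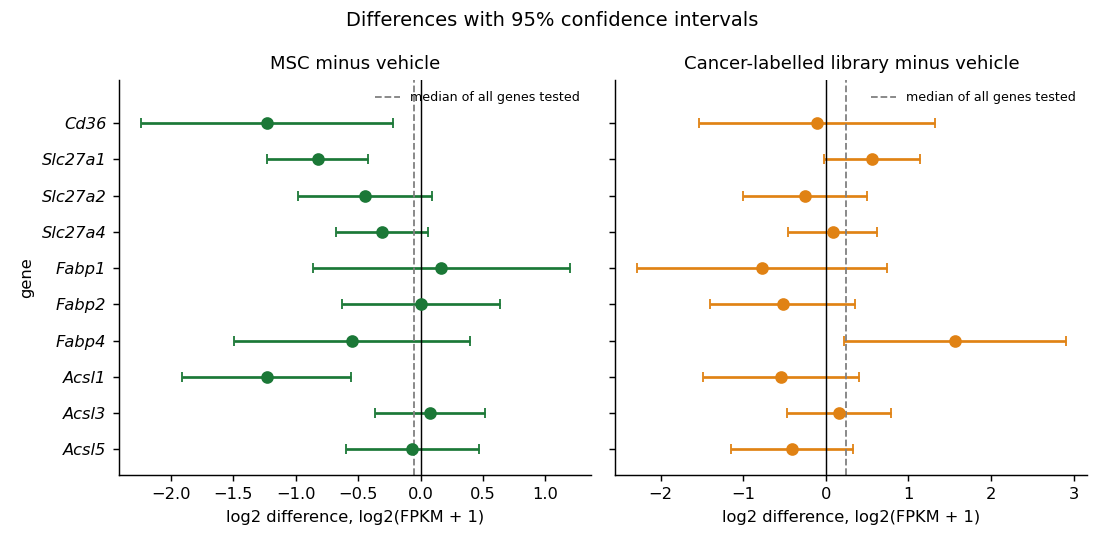
Log2 difference of each gene on log2(FPKM + 1) with its 95% confidence interval from limma (points and bars), for MSC minus vehicle on the left and the Cancer-labelled library minus vehicle on the right. The dashed line is the median of all genes tested (-0.05 and 0.25); on the left the intervals of Cd36, Slc27a1 and Acsl1 lie below 0, and on the right that of Fabp4 lies above 0.

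Genes next to the members in the pathway were counted over fixed lists. No gene of any of these lists passed limma over all genes in MSC against vehicle, where 0.019% of all genes did. At an unadjusted p under 0.05 there were 8 of 17 tested in the list of acyl-CoA fates, against 5.59% of all genes. Acot1, Acot2 and Acot3, which the series title names as a result of these samples, are among the 8. There was 1 (Acbd4) in the list of other uptake, binding and activation genes and none in the rest. Of all genes tested, 60.1% were lower and 7.84% were lower without overlap. Of the other uptake, binding and activation genes, 10 of 18 were tested, and 8 were lower and 2 higher (median log2 -0.19). Only 1 was lower without overlap. That gene was Acbd4, an acyl-CoA binding protein, at 5.92 ± 0.537 FPKM in MSC and 8.18 ± 0.199 FPKM in vehicle livers (SD, n = 3 each; adjusted p = 0.749 in limma). Slc27a5 measured 160 ± 42.5 and 205 ± 20.8 FPKM (SD, n = 3 each). Got2, mitochondrial aspartate aminotransferase and a proposed plasma membrane fatty acid binding protein, measured 71.8 ± 2.48 and 82.8 ± 9.94 FPKM (SD, n = 3 each).

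The list of acyl-CoA fates showed the most genes without overlap. Of 17 tested, 15 were lower and 2 higher (median log2 -0.52), and 10 were lower without overlap, where 60.1% of all genes tested were lower and 7.84% lower without overlap. Acot1, Acot2 and Acot3 are 3 of the 10. The series title names them as a result of these samples, so they are not independent evidence of a direction. The same holds for the counts and the median above, which include them. Among the others were Acot4, Cpt2, Acadl, Acadm, Gpat4 and Mttp. Acot4, a peroxisomal thioesterase, measured 20.2, 20.8 and 18.3 FPKM in MSC livers and 34.0, 35.7 and 46.4 FPKM in vehicle livers (adjusted p = 0.357 in limma).

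Genes for delivery of fatty acids from lipoproteins (9 of 10 tested) were lower in 6 and higher in 3 cases. Their median log2 difference was -0.14, and none stood without overlap. Of all genes tested, 60.1% were lower, 7.84% lower without overlap and 2.17% higher without overlap. The counts of all lists in this paragraph are read beside those shares. Lpl, lipoprotein lipase, measured 7.33, 3.24 and 1.29 FPKM in MSC livers and 4.90, 3.23 and 3.61 FPKM in vehicle livers. Proteins that place CD36 at the membrane or signal with it (6 of 10 tested) were lower in 6 of 6 cases, with a median of -0.09, near the -0.05 of all genes, and none without overlap. Lypla1, a thioesterase that removes palmitate from proteins, measured 20.3, 11.1 and 15.6 FPKM in MSC livers and 21.6, 18.1 and 18.9 FPKM in vehicle livers. Among regulators (9 of 10 tested), the split was 4 lower to 5 higher (median log2 0.01). Ppara measured 30.4, 15.1 and 19.3 FPKM in MSC livers and 45.5, 15.9 and 25.6 FPKM in vehicle livers, with overlap. Pparg, the fat-cell counterpart that rises in fatty liver, measured 6.07, 3.37 and 1.91 FPKM in MSC and 4.71, 4.11 and 1.96 FPKM in vehicle livers, also with overlap. Hnf4a, a regulator of hepatocyte identity, was the one regulator without overlap, at 102, 76.9 and 109 FPKM in MSC and 123, 122 and 121 FPKM in vehicle livers (adjusted p = 0.995 in limma).

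The Cancer-labelled vehicle library was set against the 3 other vehicle libraries in a model of all 7 libraries, in which its spread is taken from the others. Fabp4 was at 21.4 FPKM there, above all 6 other libraries and 2.90 times the vehicle mean. Slc27a1 was at 5.64 FPKM, also above all 6, and Slc27a4 at 6.53 FPKM lay just above vehicle replicate 3. Fabp1, at 1843 FPKM, lay below all 6, and Acsl5, at 57.1 FPKM, lay just below vehicle replicate 4. The other members stood within the range of the 6 libraries: Cd36 at 67.7, Slc27a2 at 316, Fabp2 at 66.9, Acsl1 at 115 and Acsl3 at 8.90 FPKM. Acsl1 and Slc27a2 lay below the vehicle range and above the MSC range.

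None of the 10 members passed limma in this comparison, while 4.17% of 12265 genes did. The filter on low values also admitted genes through this library alone, which could then only be high in it. With genes chosen on the 6 other libraries, a setting added after the data were seen, 0.161% of 10534 genes passed and no member did; the main count of 511 genes was also 13 with a pseudocount of 0.1, 267 without vehicle replicate 3 and 284 without vehicle replicate 4. At an unadjusted p under 0.05 there was 1 member, Fabp4, against 17.2% of all genes. The library was above all 6 others for 3 members, against 46.5% of all genes (40% of those chosen on the 6 others), and below all 6 for 2, against 4.88% (5.69%). It lay outside the range of the 3 vehicle libraries for 7 members, against 66.8% of all genes (62.6%). The median difference of all genes was 0.25, and 0.19 over genes chosen on the 6 others, and differences are read beside that shift. The log2 difference was 1.57 ± 0.59 for Fabp4 (SE; 95% interval 0.22 to 2.91; adjusted p = 0.217 in limma, and 0.390 over genes chosen on the 6 others) and 0.56 ± 0.25 for Slc27a1 (SE; 95% interval -0.02 to 1.14; adjusted p = 0.313). For Fabp1 it was -0.77 ± 0.66 (SE; 95% interval -2.29 to 0.74; adjusted p = 0.590 in limma). Slc27a4 and Acsl3 had small positive differences (0.08 and 0.16) that turned negative with libraries centred on their medians (-0.23 and -0.15).

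Genes of the delivery and CD36 partner lists and markers of other cells are given beside Fabp4 as levels, since several entered the comparison only through this library. Lpl was at 20.2 FPKM, against a vehicle mean of 3.92 FPKM. Cav1, the caveolar coat protein of endothelium and fat cells, was at 5.85 FPKM against 1.13 FPKM, and Thbs1, thrombospondin, a ligand of CD36, at 2.54 FPKM against 0.480 FPKM. All 3 lay above the 6 other libraries, as 46.5% of all genes did (40% of those chosen on the 6 others). Not all genes of these lists did. Lipc of the delivery list lay below all 6, at 18.9 FPKM. Of the CD36 partner list, Lypla1 lay below the vehicle range, at 16.0 FPKM, and Zdhhc4 and Zdhhc5 lay within it. All 5 bile duct markers lay above all 6, among them Krt19, a keratin of bile duct cells, at 24.4 FPKM against 0.989 FPKM. The endothelial markers went both ways. Pecam1, Cdh5 and Emcn lay above all 6 other libraries, at 4.42, 4.88 and 1.37 FPKM, while Lyve1, Stab2 and Clec4g were below the vehicle mean, and the list summed to 24.0 FPKM. Of the macrophage markers, Cd68 and Trem2 lay above all 6, at 18.0 and 2.77 FPKM, and Clec4f, a Kupffer cell lectin, was at 6.70 FPKM, 0.330 times the vehicle mean, with a list sum of 75.7 FPKM. Of the adipocyte markers, Adrb3 lay above all 6 at 1.96 FPKM and Lipe below all 6 at 1.47 FPKM, with a list sum of 4.71 FPKM. Cfd was at 1.21 FPKM, 0.227 times the vehicle mean. The part of these cell types in the Fabp4 value was not tested. Slc27a3, a low member of the transporter family, was at 1.06 FPKM against 0.169 FPKM, and was tested only because of its level in this library.

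**Figure D4:**
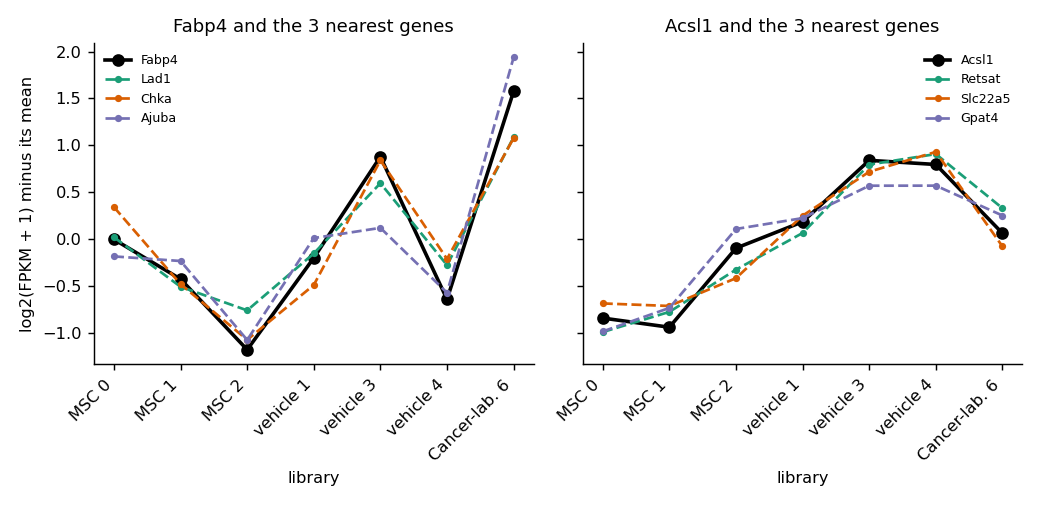
Log2(FPKM + 1) minus its mean over the 7 libraries (vertical axis) by library for Fabp4 and Acsl1, the most variable binding and activation genes (black), each with its 3 nearest genes (dashed); lines only join the points. Acsl1 and its nearest genes, chosen for their likeness, are lower in each MSC than in each vehicle library. Fabp4 is highest in the Cancer-labelled library.

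For the most variable member of each role, the 3 genes with the most similar course over the 7 libraries were found among 9327 candidates, by the root mean square difference of centred log2 values. For Acsl1 they were Retsat, retinol saturase (0.17), Slc22a5, the carnitine transporter OCTN2 (0.18), and Gpat4, a glycerol-3-phosphate acyltransferase (0.19). Retsat measured 48.6, 56.5 and 77.6 FPKM in MSC livers, 102, 170 and 184 FPKM in vehicle livers and 123 FPKM in the Cancer-labelled library. Slc22a5 measured 19.3, 19.0 and 23.5 FPKM in MSC livers, 37.9, 52.9 and 61.4 FPKM in vehicle livers and 29.997 FPKM in the Cancer-labelled library. Like Acsl1, both were lower in every MSC liver than in every vehicle liver. Among the nearest genes to Cd36 were Abhd2 (0.31), a lipid hydrolase, and Cd207 (0.36), which encodes the lectin langerin. Abhd2 measured 20.5, 7.64 and 6.03 FPKM in MSC livers and 16.4 to 19.0 FPKM in vehicle livers, with the same high MSC replicate 0 as Cd36. For Fabp4 they were Lad1, a basement membrane anchor protein (0.30), Chka, choline kinase (0.31), and Ajuba, a LIM domain protein of cell junctions (0.35). All 3 were highest in the Cancer-labelled library, at 5.72, 9.35 and 10.5 FPKM. These distances are the smallest among all candidates over 7 points that share their libraries and scaling, and they carry no test. The genes were chosen for likeness over these same libraries, so the patterns they share with a member are no separate result.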

How the data were processed

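RNA of 7 liver samples was measured by RNA sequencing, with a library for each sample. The deposited values are FPKM, per the file headers, and each library has its own column. HISAT2 2.2.1, StringTie 2.1.6, cutadapt 1.9 and FastQC 0.11.9 are named in the submitters' processing notes, with the builds GRCm38 and mm10; settings and strand handling are not given in the sources used here. FPKM is scaled by the mapped fragments of a library, so abundant transcripts can lower all other values. Its total was not fixed, and ran from 383776 in MSC replicate 0 to 514584 in MSC replicate 1. Coordinates are those of the deposited table; 8 of 10 members had the same ends in GENCODE M21, and 5 were overlapped by another gene, 1 of them on the same strand. No libraries were identical (smallest median absolute log2 difference 0.169 over 21 pairs).

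Values were analysed as log2(FPKM + 1), which understates changes of low genes. MSC minus vehicle used limma (version 3.58.1, R 4.3.3, eBayes with trend) on genes that reached 1 FPKM in 3 or more of 6 libraries, with Benjamini-Hochberg adjustment over all genes. The Cancer-labelled library was fitted in a model of 3 groups over 7 libraries, for genes at 1 FPKM in 3 libraries or in that library. Members also had an exact permutation test. The MSC minus vehicle fit was checked first on simulated independent values with the same spread for every gene. Real libraries need not vary that way, so the check does not cover the spread of these data. The model of 3 groups was not checked. Alternatives covered pseudocounts (0.1 and 5), filters, scaling, how limma was run, counting the Cancer-labelled library as vehicle, mitochondrially encoded genes and single libraries left out.

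Members and lists were chosen with earlier results of these data known. Named genes are the members, up to 4 genes of lowest p per list, family relatives and the 3 nearest genes per role, of which some are not reported here; Cpt2, Acadl, Acadm, Gpat4, Mttp, Lpl, Ppara, Pparg, Cav1, Thbs1, the markers shown and the ratios were named after their values were seen. Figures used matplotlib 3.10.9 and pandas 2.3.3.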

Additional observations from a re-analysis of the deposited data

How the results depend on the processing

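Of 339 member values under alternatives, 323 kept the direction and 0 passed the threshold (limma). For MSC minus vehicle, Fabp2 gave -0.10 and Acsl3 -0.018 as TPM, Fabp2 -0.0035 without mitochondrially encoded genes, and Acsl5 0.036 with the Cancer-labelled library counted as vehicle. For the Cancer-labelled library, Slc27a4 gave -0.23 and Acsl3 -0.15 with median centring, and Slc27a2 gave 0.12 (from -0.25), Slc27a4 -0.16 and Acsl3 -0.045 with quantile normalization. The cause was not tested. With single libraries left out, MSC minus vehicle ran from -0.12 to 0.47 for Fabp1, -0.29 to 0.18 for Fabp2, -0.064 to 0.17 for Acsl3 and -0.26 to 0.13 for Acsl5. Median centring moved the median of all genes in the Cancer-labelled comparison from 0.25 to -0.06.

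Among all genes, 2 passed for MSC minus vehicle, Mup-ps18 (lower) and Gm20716 (higher), neither a member. The count was 1 with the Cancer-labelled library counted as vehicle, and 1 to 8 with single libraries left out, 8 without vehicle replicate 1. The Cancer-labelled comparison called 511 genes (488 higher, 23 lower), 13 at a pseudocount of 0.1, 838 at 5, 1035 without the filter on low values, 80 at a minimum of 5 FPKM and 17 with the filter applied to the 6 other libraries, a setting chosen after seeing the data. Quantile normalization split its calls into 318 higher and 65 lower. With single libraries left out it called 267 (without vehicle replicate 3) to 631 genes, and 284 without vehicle replicate 4. Members without overlap numbered 3 to 6, with Cd36 among them without MSC replicate 0 or vehicle replicate 4 and with median centring. Leaving a library out can add such members but cannot remove any. Slc27a1 was not tested for MSC minus vehicle at a minimum of 5 FPKM. No paired analysis was possible because the MSC and vehicle labels share only replicate number 1. Depth is unknown, so counting error could not be given.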
